A study of Mus musculus with 400 samples.

Results

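Neurons that carry Th and neurons that carry Mrgprd were compared as single cells sorted from the dorsal root ganglia (DRG) of the cervical levels C1 to C8. All mice were naive, 6 to 12 weeks old, and of 1 genotype, Nav1.8-Cre R26CAG-floxStop-tdTomato (strain label Nav1.8-Cre.Ai14). In them a Cre recombinase under the control of the Nav1.8 gene Scn10a removes a stop cassette, and the red fluorescent protein tdTomato is then made. Cells were sorted for tdTomato, so neurons that never switched on the Nav1.8 driver are not represented, and both classes carry the reporter and the Cre. The study holds 6 mice, sequenced in 4 runs. Run 1 holds the mice Blue and Red, run 2 the mouse Control, run 3 the mice Control1 and Control2, and run 4 the mouse Control6.

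Of 394 cells with a column in the tables, 371 had at least 500 detected genes and were kept. The members were chosen by the measured levels of 3 genes in CPM, a gene's signal divided by the total of its cell on the usual scale. The Th class held the 34 cells with Th at 100 CPM or more, Calca under 1000 CPM and Mrgprd under 200 CPM. The Mrgprd class held the cells with Mrgprd at 200 CPM or more and Th under 100 CPM, which were 30.5% of the kept cells and brought both classes to 147 cells. A further 219 cells were under both thresholds and are called the remaining cells; 5 cells with Th had Calca at 1000 CPM or more and were in none of these groups. Th, Mrgprd and Calca chose the cells, so their values are a description and they entered no test. The other genes were measured in the same cells that the rule sorted, and p-values are conditional on the classes.

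Th encodes tyrosine hydroxylase, which starts the synthesis of catecholamines. In the DRG it marks C-fibre low-threshold mechanoreceptors, thin unmyelinated neurons that end around hair follicles and respond to gentle stroking. Mrgprd encodes a receptor for beta-alanine and marks non-peptidergic C fibres that end in the epidermis and take part in the response to noxious mechanical stimuli and in itch. Both kinds of neuron pass through a developmental stage with Ret and Runx1, which is why what they share is of interest as well as what separates them.

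The rule genes hardly met in 1 cell. Th ranged from 109 to 1755 CPM in the Th class, with a median of 882 CPM, and Mrgprd was at 0 in all 34 of these cells. Mrgprd ranged from 253 to 1523 CPM in the Mrgprd class, with a median of 663 CPM, and Th was at 0 in 109 of these cells. No kept cell passed both thresholds: the count was 0 of 371. Calca, the gene of the neuropeptide CGRP, was at 0 in 31 of 34 Th class cells and had a median of 196 CPM in the Mrgprd class, where 6 cells had 1000 CPM or more. Just inside the Th threshold lay cells at 109 and 126.4 CPM, and just outside it cells at 99.1 and 89.2 CPM. On the Mrgprd side the nearest cells stood at 253 CPM inside and 138 CPM outside.

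The label of touch neuron was checked with 7 markers other than Th. A median of 7 of the 7 was detected in cells of the Th class and 4 of 7 in cells of the Mrgprd class. With 8 markers of Mrgprd neurons other than Mrgprd, the medians were 3 in the Th class and 8 in the Mrgprd class. One cell of the Th class, from mouse Blue, had 0 of the 7 touch markers, with Piezo2 and Gfra2 at 0 and the glial gene Apoe high. One cell of the Mrgprd class, from mouse Control, held 1142 counts. These 2 cells stand apart and were kept by the rule; Th class means of named genes that the Blue cell moves by over 1.5 times are also given without it. No 2 columns of the tables were identical.

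The 5′ flanks of 4 genes are shown, those of both genes that name the classes and of 1 gene from the largest differences on each side. Lpar3 had the largest difference on its side when all class cells were used. Mcam did not, and among the 9 genes of its side with a promoter entry it alone held the element marked below. Each line gives the 150 bases just before the annotated start, 5′ to 3′ on the gene's strand, from RefSeq on GRCm38.p6. Capitals mark a full cAMP response element, TGACGTCA, the site bound by CREB and related factors.
Th: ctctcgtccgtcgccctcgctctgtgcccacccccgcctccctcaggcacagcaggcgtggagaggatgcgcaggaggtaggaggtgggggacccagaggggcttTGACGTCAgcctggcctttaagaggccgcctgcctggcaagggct
Mcam: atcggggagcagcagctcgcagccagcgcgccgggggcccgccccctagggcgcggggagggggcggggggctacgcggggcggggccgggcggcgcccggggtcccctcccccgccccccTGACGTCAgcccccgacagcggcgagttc
Mrgprd: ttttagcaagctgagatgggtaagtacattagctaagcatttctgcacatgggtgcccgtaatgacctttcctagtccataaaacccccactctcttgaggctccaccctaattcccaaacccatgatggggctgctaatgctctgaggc
Lpar3: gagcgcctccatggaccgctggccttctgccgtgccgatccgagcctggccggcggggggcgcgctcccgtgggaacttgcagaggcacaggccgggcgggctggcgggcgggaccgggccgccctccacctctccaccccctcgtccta
The Th flank lies at chr7:142899996-142900145 on the minus strand, and the element starts 45 bases before the annotated start. The Mcam flank lies at chr9:44134508-44134657 on the plus strand, with the element 29 bases before the start. The flanks of Mrgprd (chr7:145314685-145314834) and Lpar3 (chr3:146220811-146220960), both on the plus strand, hold no such match. GC content was 68.7% for Th, 84% for Mcam, 48.7% for Mrgprd and 76.7% for Lpar3. The element, which reads the same on both strands, occurs in the 250 bases before the start in 508 of 32851 promoters (1.55%). Of the 12 genes with the largest difference towards the Th class, 9 had a promoter entry, and 1 of them, Mcam, held the element. Of the 12 on the Mrgprd side 9 had an entry, and 0 held it. A RUNX motif (in 14% of all promoters) and the E-box CACGTG (6.02%) were also searched. They were found in 0 promoters of these genes on either side. A match in these letters is a description and does not show that a factor binds there.

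The Th class made up 11.1% of the kept cells of Blue and 10.9% of those of Red, and 4% to 8% in the other 4 mice. The Mrgprd class made up 25.4% and 27.3% in Blue and Red, and 36% to 44% in the other 4 mice. Over the 6 mice the shares were 7.28% ± 3.22 (SD, n = 6) and 35.7% ± 7.72 (SD, n = 6). The exact 95% Clopper-Pearson interval of the pooled Th share, 34 of 371 cells, ran from 6.43% to 12.6% and covers counting error only. Blue and Red each gave 14 Th class cells; the other 4 mice gave 1 or 2 each. Gene tests therefore rest on Blue and Red, the mice with at least 3 cells of each class, and counts for the gene lists are also given for all 6 mice.

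Cells of the Th class held a median of 30922 recovered counts (lowest 12762, highest 54506), cells of the Mrgprd class 46207 (1142 to 235559), and the remaining cells 23020. The difference of the class medians of detected genes per cell, Th class minus Mrgprd class, was -624.5 on the mean of Blue and Red. Over 6 mice the difference was -499.7 ± 474 (SD, n = 6), with fewer genes in the Th class in 5 of 6 mice (exact two-sided sign-flip permutation p = 0.094; the smallest p that 6 mice allow is 0.031). Of markers of other cells, those of macrophages (7 genes) and endothelium (4 genes) were all at 0 in the Th class, and 1 of 7 sympathetic neuron genes was detected. Satellite glial genes summed to a mean of 1078 CPM per cell in the Th class and 720 CPM in the Mrgprd class. The medians over cells were close, at 291 and 274 CPM. Mouse means ran from 293 to 3132 CPM in the Th class and from 401 to 1261 CPM in the Mrgprd class. Genes of the Schwann cell list summed to 2871 against 1133 CPM, and Prx and Mag were at 0 in the Th class. That list holds Scn7a, with a pooled level of 801 CPM in the Th class and 202 CPM in the Mrgprd class. Scn7a had a count in 97.1% and 99.1% of their cells, and the part of neurons in the sum was not tested. The part of depth and of glial RNA in the differences below was not tested, apart from the comparison with cells thinned to 10000 counts and the comparison that left out cells over 200 CPM of 7 glial genes.

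Between the Th class and the Mrgprd class, 2407 of 8763 tested genes differed in Blue and Red (27.5%; limma on log2 of mean CPM + 5 with mouse as a block, Benjamini-Hochberg adjusted p under 0.05). Of these 1323 (15.1% of the genes tested) were higher in the Th class and 1084 (12.4%) were lower, and these percentages are the background for the gene groups below. Each difference is given on that log2 scale, on which a gene with few counts shows less of a difference than its CPM ratio would. The median difference over all tested genes was 0.05, and -0.18 with 6 mice. Averaging log2 values over cells in place of CPM gave 2491 genes, but only 940 of them higher in the Th class. With all 6 mice 1096 of 8806 genes differed (12.4%; 6.08% higher and 6.37% lower), and 1021 of them were the same genes in the same direction as in Blue and Red. In the 4 mice of the other runs, which share no cell with Blue and Red, 2280 of the 2407 genes could be tested. The same direction was seen for 2043 of them (89.6%), 505 differed in the same direction by the test, and 0 in the opposite one. At this test 527 of 8756 genes differed in those 4 mice (6.02%).

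**Figure D1:**
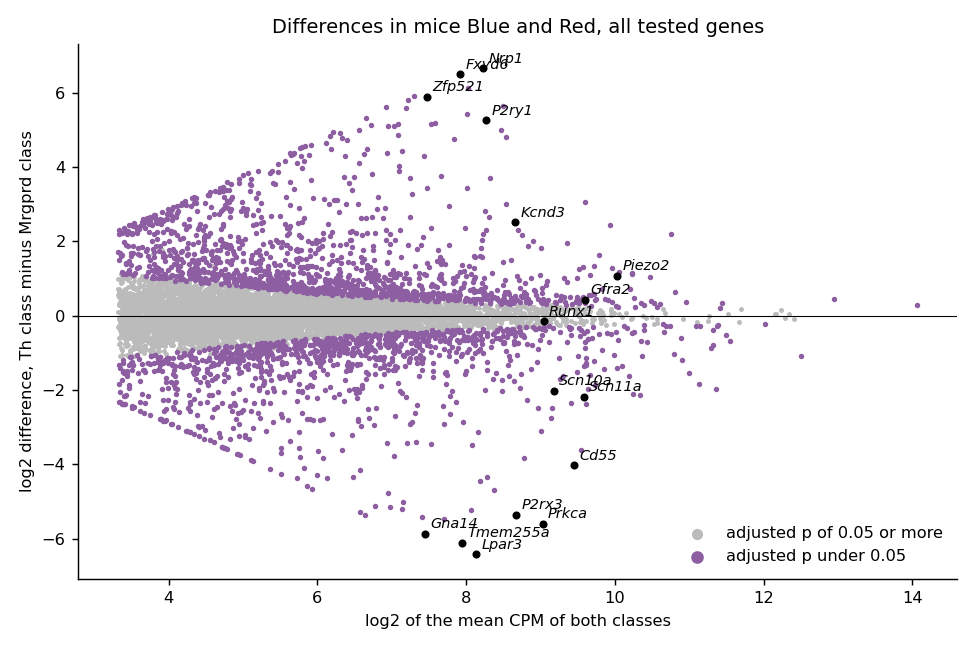
Each point is 1 of the 8763 genes tested in mice Blue and Red, with the log2 of the mean CPM of both classes on the x axis and the log2 difference, Th class minus Mrgprd class, on the y axis; purple marks an adjusted p under 0.05. Nrp1 and Fxyd6 lie highest at 6.66 and 6.50, Lpar3 lies lowest at -6.42, and Gfra2 and Runx1 lie near 0 at a high level.

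**Figure D2:**
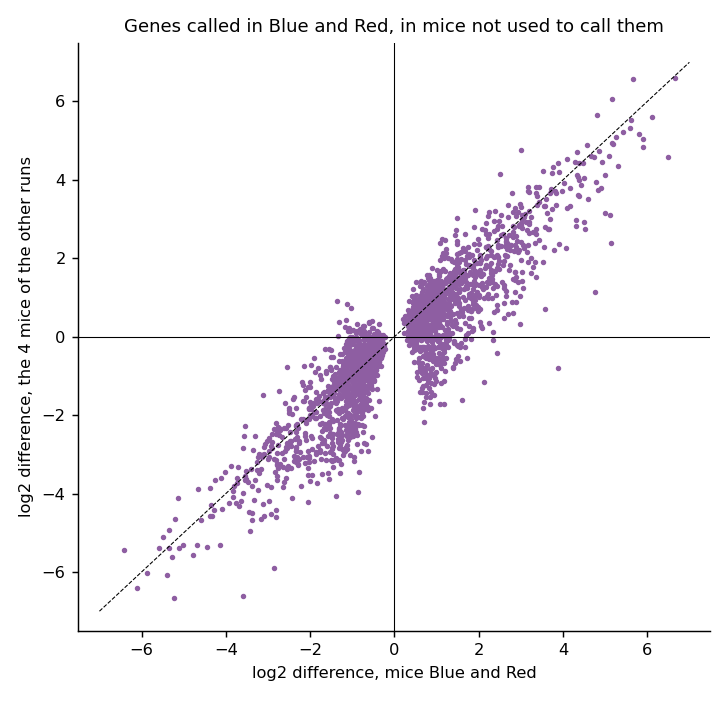
Each point is a gene that differed in mice Blue and Red and was tested in the 4 mice of the other runs; the x axis is the log2 difference in Blue and Red and the y axis the log2 difference in the 4 other mice, with a dashed line of equality. Of 2280 genes, 2043 lie in the lower left or upper right quadrant.

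Piezo2, the channel that opens on light mechanical force (chr18:63010213-63387183, mm10, minus strand), was higher in the Th class, and both classes had more of it than the remaining cells. It averaged 1279 CPM in Blue and 1559 CPM in Red in the Th class, against 651 and 681 CPM in the Mrgprd class. Over the 6 mice the Th class means had a lowest value of 1221, a median of 1587 and a highest value of 2140 CPM, and the Mrgprd class means 651, 791 and 1132 CPM. All 6 Th class means stood above all 6 Mrgprd class means, which held for 4.83% of the genes tested in 6 mice. The difference was 1.08 ± 0.088 (SE; limma adjusted p = 1.08e-06). Both classes together exceeded the remaining cells by 2.40 (limma adjusted p = 4.4e-08), where Piezo2 averaged 180 CPM.

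Genes known from C-fibre touch neurons were, as a group, high in the Th class and low in the Mrgprd class. Of 17 tested members of that list besides Th, 15 were higher in the Th class and 0 lower (background 15.1%), with a median difference of 4.36 against 0.05 over all genes; 14 of 17 were higher with 6 mice. The list was put together from earlier knowledge of these neurons and with results of these data known, so its direction is no independent evidence. Slc17a8 encodes the vesicular glutamate transporter VGLUT3, by which these neurons are often recognised. Its Th class mean was 163 CPM in Blue and 222 CPM in Red, against 9.1 and 1.4 CPM in the Mrgprd class (difference 4.36 ± 0.33, SE; limma adjusted p = 6.09e-07). Fam19a4 (also called Tafa4), a secreted protein, averaged 454 and 498 CPM against 40.6 and 38 CPM. The Mrgprd class was not without it: a count was found in 75.2% of its cells, against 97.1% of the cells of the Th class and 22 of 219 of the remaining cells. Rarres1 reached 718 CPM in the Th class and 20.9 CPM in the Mrgprd class over Blue and Red. Kcnd3, a subunit of the A-type potassium channel Kv4, averaged 662 and 725 CPM against 125.1 and 109 CPM.

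Several of these genes were found in few cells of the Mrgprd class or in none. Zfp521, a zinc finger transcription factor (chr18:13687013-13972787), had a count in all 34 Th class cells and in 5 cells (4.42%) of the Mrgprd class. Its Th class means ran from 137 to 402 CPM over 6 mice and its Mrgprd class means from 0 to 5.1 CPM, a difference of 5.90 ± 0.25 (SE; limma adjusted p = 2.8e-09). Cckar, the cholecystokinin A receptor, was found in 97.1% of cells at 269 CPM, against 8.85% of cells at 3.08 CPM. Scin, an actin-severing protein, was at 0 in every Mrgprd class cell and averaged 113.5 CPM in the Th class. Against the limit of 3 counts over the whole Mrgprd class, its pooled level was at least 236-fold higher in the Th class. Dgkk, a diacylglycerol kinase on the X chromosome, averaged 201 against 0.155 CPM. P2ry1, the P2Y1 receptor for ADP (chr3:61002795-61008982, plus strand), averaged 582 and 626 CPM in the Th class and 7.89 and 14.6 CPM in the Mrgprd class, where 37.2% of cells had a count of it against 22.8% of the remaining cells. Predicted gene Gm37035 overlaps 23.1% of the P2ry1 exons, and no source used here gives the strand used in counting, so its level is uncertain. Iqsec2 and Gnaz were the members that did not pass the test, named after their values were seen.

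**Figure D3:**
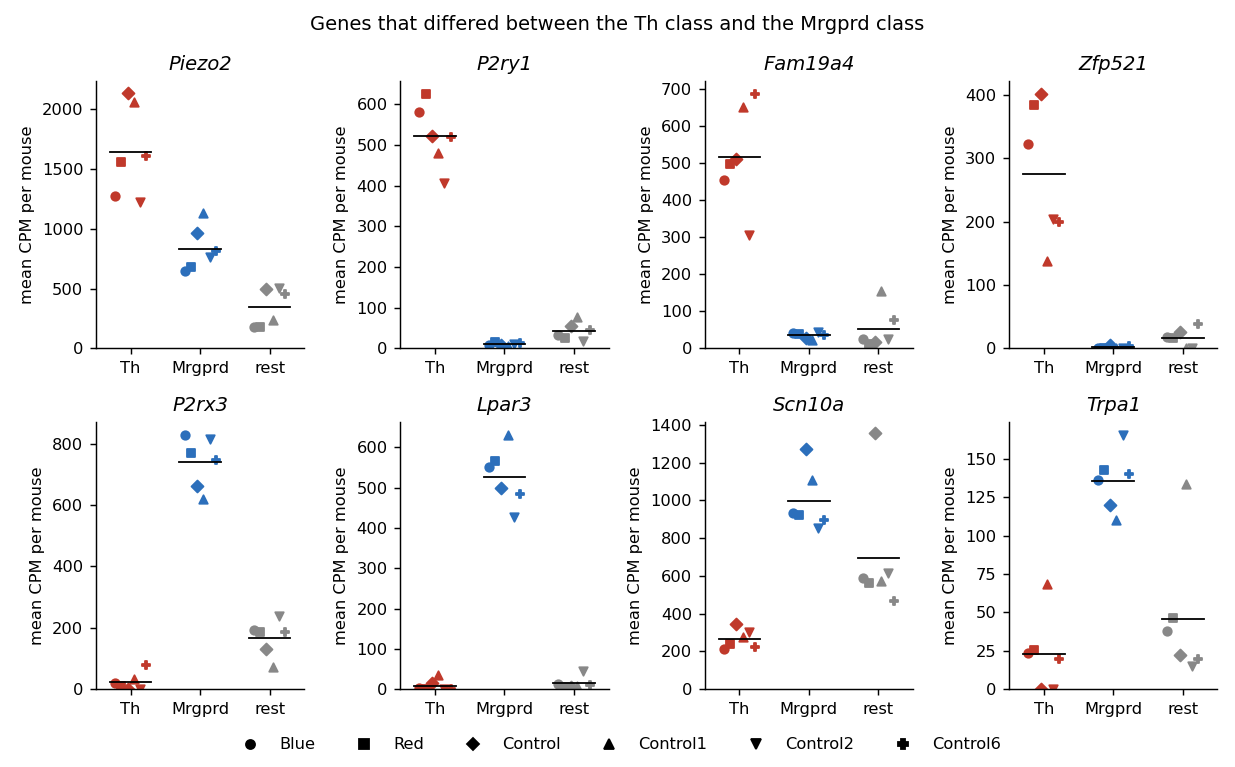
Each panel shows 1 gene, with mean CPM per mouse on the y axis and the Th class, the Mrgprd class and the remaining cells on the x axis; symbols are the 6 mice and black lines the means over mice. Piezo2, P2ry1, Fam19a4 and Zfp521 are highest in the Th class in every mouse, and P2rx3, Lpar3 and Trpa1 lie below the Mrgprd class in the Th class of every mouse, as does Scn10a.

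The 12 largest differences towards the Th class held surface proteins and regulators of signalling as well as touch neuron genes. Nrp1, neuropilin-1, a co-receptor for class 3 semaphorins and VEGF, averaged 475 CPM in Blue and 720 CPM in Red in the Th class, against 0 and 1.82 CPM in the Mrgprd class (6.66 ± 0.22, SE; limma adjusted p = 7.6e-10). It was found in 97.1% of Th class cells, 3.54% of Mrgprd class cells and 46.6% of the remaining cells, so it was not particular to the Th class. Fxyd6, a modulator of the sodium pump, differed by 6.50, the phospholipid flippase gene Atp11a by 6.12, and the adhesion molecule Mcam by 5.90. Mcam averaged 315 against 0.363 CPM. Stac2, an adaptor of voltage-gated calcium channels, differed by 5.82, and the calcium pump gene Atp2b2 by 5.59. Nrip3 differed by 5.43 and averaged 509 CPM in the Th class.

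Rgs5 and Cd34, better known from pericytes and from blood and vessel cells, were among the 12. Rgs5, a GTPase activator for G proteins, averaged 713 CPM in the Th class and 11.4 CPM in the Mrgprd class and was found in 94.1% and 6.2% of cells. Cd34 averaged 226 and 259 CPM in Blue and Red in the Th class and was at 0 in every Mrgprd class cell, a pooled level at least 454-fold higher. Of 5 mural markers, Rgs5 among them, 3 were detected in the Th class, and their sum averaged 699 CPM per cell there against 37.1 CPM in the Mrgprd class, with mouse means from 309 to 797 CPM and from 11.3 to 46.7 CPM. Of these, Tagln had a count in 1 and Pdgfrb in 2 of 34 Th class cells, and Acta2 and Myh11 were at 0. The endothelial markers Cldn5, Pecam1, Flt1 and Cdh5 were at 0. The part of mural cell RNA in these differences was not tested.

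Genes known from Mrgprd neurons went the other way: of 21 tested members besides Mrgprd, 19 were lower in the Th class and 1 was higher (background 12.4% lower), with a median difference of -3.10; with 6 mice 16 were lower and 1 higher. The exceptions were Rgs10, which was higher in the Th class, and Kcnip2, which did not pass the test; both are named after their values were seen. Lpar3, a receptor for lysophosphatidic acid (chr3:146220963-146286186), showed the largest difference on this side when all class cells were used. It averaged 552 and 566 CPM in the Mrgprd class of Blue and Red, and 3.65 and 0 CPM in the Th class, a difference of -6.42 ± 0.24 (SE; limma adjusted p = 1.35e-09). It was found in 98.2% of Mrgprd class cells and 4 of 34 Th class cells. P2rx3, the ATP-gated channel P2X3, averaged 829 and 770 CPM against 19.8 and 10.7 CPM, a difference of -5.35. Over 6 mice its Mrgprd class means ran from 619 to 829 CPM and its Th class means from 0 to 78 CPM, with no overlap, as for 5.59% of the genes tested in 6 mice on this side. Cd55, which restrains complement, averaged 1319 against 76.7 CPM, and Ctxn3 642 against 20.0 CPM. Agtr1a, an angiotensin II receptor, was at 0 in all 34 Th class cells and averaged 115.6 CPM in the Mrgprd class, a pooled level at least 39.1-fold lower in the Th class. Plxnc1, a receptor for semaphorin 7A, averaged 921 against 103.7 CPM.

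Other large differences towards the Mrgprd class were Tmem255a (-6.10), the alpha subunit gene Gna14 (-5.87) and Prkca (-5.59). Serping1, the C1 inhibitor, differed by -5.48, Dkk3 by -5.40 and the heparan sulfate sulfotransferase gene Hs6st2 by -5.22. Ly86 and Tmem233 were at 0 in all 34 Th class cells and averaged 199 and 190 CPM in the Mrgprd class. Their pooled levels were at least 73.7-fold and 69.7-fold lower in the Th class. Without the Blue cell that lacked touch markers, Tmem255a was at 0 in the Th class of both mice. Its difference was then -6.63, larger than the -6.40 of Lpar3 in the same fit. Without that cell the Th class means of Blue were 7.75 CPM in place of 34.4 CPM for Hs6st2 and 0 in place of 5.43 CPM for Serping1.

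Genes of the Gq and protein kinase C pathway differed in both directions. In this pathway Gq proteins activate phospholipase C beta and diacylglycerol then activates protein kinase C. Of 24 tested members, 11 were lower and 6 higher in the Th class (backgrounds 12.4% and 15.1%), with a median of -0.53; with 6 mice 10 of 23 were lower and 2 higher. Gnaq, the Gq alpha subunit, averaged 322 CPM in the Th class and 1274 CPM in the Mrgprd class (-1.97 ± 0.09, SE; limma adjusted p = 6.9e-09). Plcb3 averaged 2.81 against 279 CPM. Prkca averaged 16.6 against 1027 CPM, and Prkcq, a kinase of the theta type, 2.19 against 249 CPM. Gna14 was found in 1 of 34 Th class cells and in 98.2% of Mrgprd class cells. Dgkk, Prkcb, Plcb4, Plcb1, Plcd4 and Rasgrp1 were the 6 higher in the Th class. Among 28 G protein and RGS genes, 12 were lower and 7 higher, and with 6 mice 10 of 26 were lower and 3 higher. Gnao1 averaged 1048 against 3041 CPM and Gnal 150 against 853 CPM.

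Genes of cAMP signalling differed in both directions. Of 19 tested members, 8 were higher and 5 lower in the Th class, with a median of 0.10. With 6 mice 5 were higher and 3 lower, with a median of -0.17 against -0.18 over all genes. Prkar1a, a regulatory subunit of protein kinase A, averaged 1476 CPM in the Th class and 645 CPM in the Mrgprd class, whereas Prkar2b, another regulatory subunit, averaged 53.6 against 825 CPM (-3.83 ± 0.14, SE; limma adjusted p = 8.4e-10). Pde1c, a calcium-dependent phosphodiesterase, averaged 152 against 14.5 CPM.

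Sodium channel genes differed in both directions. Of 14 tested genes, 10 were higher and 3 lower in the Th class, with a median of 1.93; with 6 mice 7 were higher and 3 lower. Scn10a, the Nav1.8 gene whose control regions drive the Cre (chr9:119608456-119719322), averaged 214 CPM in Blue and 238 CPM in Red in the Th class, against 934 and 925 CPM in the Mrgprd class. Over the 6 mice its Th class means were 214, 256 and 345 CPM (lowest, median, highest) and its Mrgprd class means 854, 930 and 1271 CPM. The groups did not overlap, and the difference was -2.02 ± 0.10 (SE; limma adjusted p = 1.53e-08). Scn10a was still found in 32 of 34 Th class cells. Scn11a, the Nav1.9 gene next to it, differed by -2.17, with 275 against 1256 CPM, and Fgf13, a cytoplasmic partner of sodium channels, by -1.86. Scn9a, the Nav1.7 gene, did not pass the test: it averaged 821 against 721 CPM, and the 95% interval of its difference ran from -0.02 to 0.38.

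Other sodium channel genes were higher in the Th class. Scn1a, the Nav1.1 gene, averaged 102.5 CPM over the Th class means of the 6 mice (lowest 50.9, highest 172 CPM) and 3.26 CPM over those of the Mrgprd class (lowest 0, highest 15.7 CPM). It was found in 91.2% against 6.2% of cells. Scn7a, a sodium-sensing channel that is also made by glia, averaged 770 against 188 CPM, a difference of 2.01, and had a count in 97.1% and 99.1% of cells. Scn3b, an auxiliary subunit, averaged 313 against 56.3 CPM in Blue and Red (2.36), but it was at 0 in the single Th class cell of Control2, and with 6 mice the difference of 1.21 did not pass the test (limma adjusted p = 0.311).

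Calcium and potassium channels were also divided. The T-type calcium channel genes Cacna1h and Cacna1i, which open near the resting potential, averaged 143 and 100 CPM in the Th class and 1.72 and 0.21 CPM in the Mrgprd class. Cacna1h was found in all 34 Th class cells and in 4 cells (3.54%) of the Mrgprd class. Cacna1c, the L-type channel Cav1.2, went the other way with 11.1 against 105.5 CPM. Of 12 tested calcium channel genes 4 were higher and 3 lower, and with 6 mice 3 and 2 of 11. Of 40 potassium and HCN channel genes 17 were higher and 12 lower, with a median of 0.08. With 6 mice 10 of 41 were higher and 12 lower, with a median of -0.12 against -0.18 over all genes. Dpp10, a partner of Kv4 channels, averaged 720 against 193 CPM. Kcnt1, a sodium-activated potassium channel, averaged 41.5 against 276 CPM, and Kcnmb1, a beta subunit of the BK channel, 1.72 against 111.5 CPM.

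**Figure D4:**
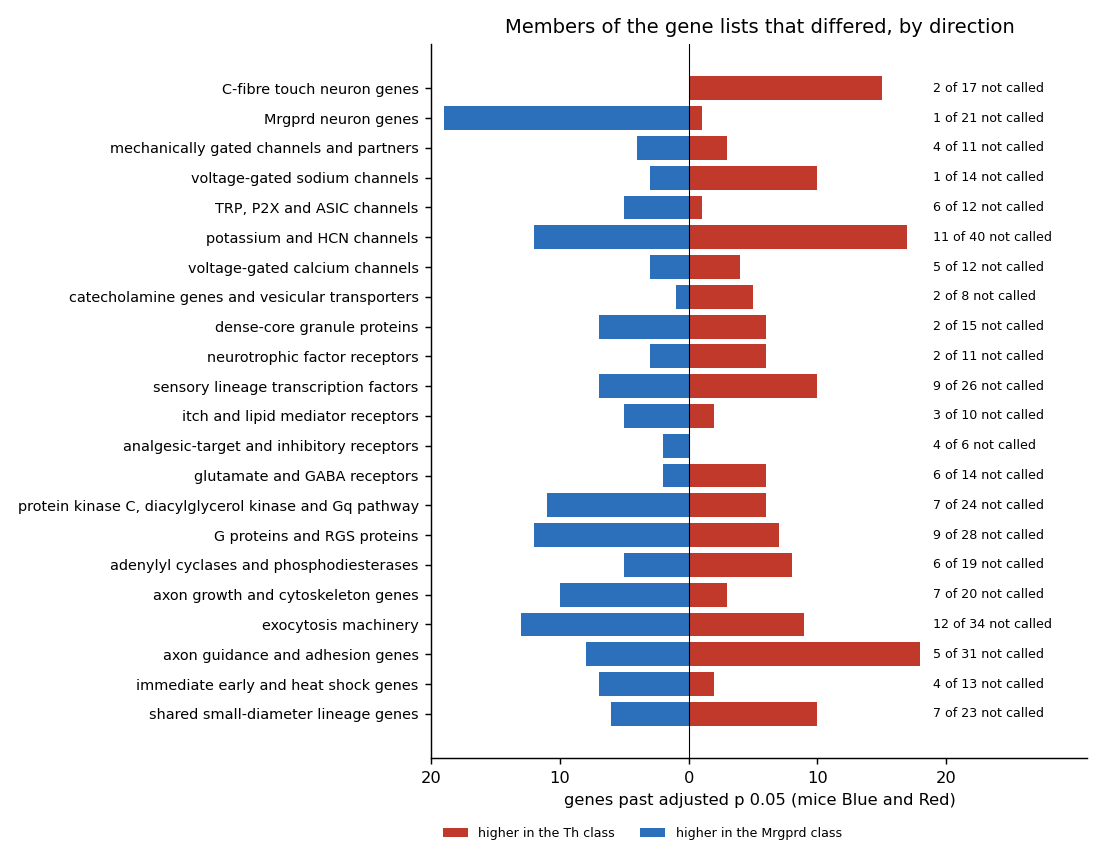
Bars give the number of tested genes of each list that differed between the classes in mice Blue and Red (limma adjusted p under 0.05), to the right in red for genes higher in the Th class and to the left in blue for genes higher in the Mrgprd class; the text at the right gives those not past the threshold, and lists with fewer than 6 tested genes are not drawn. The C-fibre touch neuron list has 15 to the right and 0 to the left, the Mrgprd neuron list 1 and 19.

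Some channels that sense chemicals were lower in the Th class. Of 12 tested TRP, P2X and ASIC genes, 5 were lower and 1 (Asic1, named after its value was seen) was higher, and with 6 mice 5 and 1 of 14. Trpa1, a channel for irritants, averaged 23.4 and 25.7 CPM in the Th class of Blue and Red and 136 and 143 CPM in the Mrgprd class (-2.29 ± 0.21, SE; limma adjusted p = 2.96e-06). Its Th class means ran from 0 to 68.6 CPM over 6 mice and its Mrgprd class means from 110 to 166 CPM. Trpc6 was at 0 in all 34 Th class cells. Trpv1, the capsaicin receptor, turned on 1 cell. Its Th class mean was 250 CPM in Blue and 0 in the other 5 mice, because the Blue cell without touch markers alone carried it (1 of 34 cells). Its Mrgprd class means ran from 7.1 to 24.3 CPM. With that cell the difference was 0.45 (limma adjusted p = 0.735), and without the 2 doubtful cells it was -2.39 (limma adjusted p = 3.74e-06).

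Besides Piezo2, the mechanically gated channels and partners gave 3 higher (Piezo2 among them) and 4 lower of 11 tested genes, and 1 higher and 2 lower of 10 with 6 mice. Tmem63b, which forms a channel opened by membrane stretch, averaged 276 against 125.99 CPM, a difference of 1.10 that did not pass the test with 6 mice (0.78, limma adjusted p = 0.0679). Tmem63a was at 0 in all 34 Th class cells and averaged 61.95 CPM in the Mrgprd class. Tmem63c averaged 5.84 against 40.8 CPM.

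Other genes of catecholamine transmission had few or no counts in the Th class. Ddc, which makes dopamine from the product of tyrosine hydroxylase, was found in 0 of 34 Th class cells, which allows a share of up to 8.82% of cells with a count and sets no limit on cells that express it below this depth. Dbh, which makes noradrenaline, and Gch1, which makes the cofactor of tyrosine hydroxylase, were also found in 0 of 34 cells, and Slc18a2, the vesicular monoamine transporter VMAT2, in 1 of 34. These 4 genes were too low in both classes to be tested. Of 8 tested catecholamine and vesicular transporter genes, 5 were higher and 1 lower in the Th class, and 4 and 1 with 6 mice. Pcbd1, of the recycling of the same cofactor, averaged 135 against 31.4 CPM, and Maoa, a monoamine oxidase, 156 against 62.8 CPM. Slc17a6, the glutamate transporter VGLUT2, averaged 459 and 435 CPM in the Th class of Blue and Red and 289 and 283 CPM in the Mrgprd class, a difference of 0.63 (limma adjusted p = 7.29e-04).

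Neuropeptide genes were few in both classes. Of 4 tested genes besides Calca, Tac1, which encodes substance P, was higher in the Th class and the other 3 were lower, also with 6 mice. Tac1 averaged 577 and 414 CPM in the Th class and 89.4 and 118.1 CPM in the Mrgprd class, but 2046 CPM in the remaining cells; in the 4 other mice its difference of 1.04 did not pass the test (limma adjusted p = 0.12). Calcb averaged 170 against 505 CPM and Bdnf 6.27 against 92.4 CPM; without the doubtful Blue cell the Th class mean of Bdnf was 0.896 CPM. Of 15 dense-core granule genes 6 were higher and 7 lower, and with 6 mice 3 and 7 of 16. Scg3 averaged 1167 against 2383 CPM and the convertase gene Pcsk2 23.3 against 270 CPM (13 CPM in the Th class without the doubtful Blue cell). Scg2, secretogranin II, was carried in the Th class by the same Blue cell that carried Trpv1 (1 of 34 cells). Its difference was -0.61 with that cell (limma adjusted p = 0.578) and -2.80 without the 2 doubtful cells (limma adjusted p = 6.54e-08).

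Receptors for neurotrophic factors differed beyond those the classes share. Of 11 tested genes 6 were higher and 3 lower in the Th class, and with 6 mice 5 and 3 of 10. Ngfr, the p75 receptor, averaged 244 CPM in the Th class and 2.28 CPM in the Mrgprd class (5.09 ± 0.25, SE; limma adjusted p = 9.9e-09). Its Th class means ran from 161 to 509 CPM over 6 mice and its Mrgprd class means from 0 to 66.8 CPM. Ntrk3, the receptor for NT-3, averaged 97.04 against 20.1 CPM. Lifr, the receptor for leukaemia inhibitory factor, was lower with 619 against 1577 CPM, and Gfra1, the co-receptor for GDNF, with 1.24 against 55.6 CPM.

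Among 26 transcription factors of sensory neurons 10 were higher and 7 lower, and with 6 mice 8 and 3 of 28. Pou4f2 averaged 163 against 8.85 CPM, its relative Pou4f1 556.5 against 265 CPM, and Tlx3 294 against 110.9 CPM. The difference of Pou4f1 was 1.06 ± 0.11 (SE; limma adjusted p = 8.39e-06), and its class means did not overlap over 6 mice. Runx1 did not pass the test and is described with the shared genes.

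Surface and synaptic genes gave further contrasts. Of 31 axon guidance and adhesion genes 18 were higher and 8 lower in the Th class, with a median of 1.14; with 6 mice 11 of 33 were higher and 8 lower. Cadm1, an adhesion molecule, averaged 574 against 1760 CPM, and Plxnd1, a semaphorin receptor, 4.12 against 174 CPM. Of 34 genes of exocytosis 9 were higher and 13 lower, and with 6 mice 4 and 8 of 33. Sv2a, a synaptic vesicle protein, was at 0 CPM in the Mrgprd class of Blue and Red and averaged 148 CPM in the Th class. Unc13c, which primes vesicles, averaged 6.97 against 183 CPM, and Syt4 252 against 1313 CPM. Snap25 averaged 964 against 472 CPM. In the list of glutamate and GABA receptors 6 of 14 genes were higher and 2 lower, and with 6 mice 3 and 3 of 15. Of 6 inhibitory and analgesic-target receptor genes tested, 0 were higher and 2 lower, as also among 7 with 6 mice: Grm7 averaged 13.4 against 117.3 CPM, and the cannabinoid receptor gene Cnr1 was at 0 in all 34 Th class cells against 32.7 CPM. F2rl2, a thrombin-receptor relative in the list of itch and lipid mediator receptors, averaged 8.25 against 152 CPM; 5 of that list's 10 tested genes were lower and 2 higher, and with 6 mice 5 and 1 of 9.

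Of 20 axon growth and cytoskeleton genes 10 were lower and 3 higher in the Th class, with a median of -0.30; with 6 mice 7 of 22 were lower and 3 higher. Basp1, a growth cone protein, averaged 111.1 against 1384 CPM (-3.60 ± 0.14, SE; limma adjusted p = 1.3e-09). Stmn1 went the other way with 1210 against 476 CPM. Nefh, the heavy neurofilament, averaged 68.5 against 120 CPM, and its difference of -0.76 did not hold with 6 mice (-1.17, limma adjusted p = 0.245). Of 13 immediate early and heat shock genes, which respond to stress and to tissue dissociation, 7 were lower and 2 higher, and with 6 mice 6 and 0; Hsp90aa1 averaged 2356 against 3389 CPM. Their part in the other differences was not tested.

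Many genes were at a like level in both classes of Blue and Red. Of 6064 genes with at least 20 CPM in both classes of Blue and Red, 4440 (73.2%) had a 95% interval of the difference that lay within 1 either way on the log2 scale. With 6 mice 1976 genes met this limit. Against the remaining cells of the same mice, the mean of the 2 classes differed for 2200 of 8987 genes (24.5%; limma adjusted p under 0.05), of which 993 (11%) were higher and 1207 (13.4%) lower; with 6 mice 1085 genes differed (11.9%). A gene was counted as shared where it passed this test, had at least 20 CPM on the higher side, stood on the same side of the remaining cells in both classes of both mice, and was at a like level in the 2 classes. By that rule 528 genes were higher in both classes and 378 lower. The remaining cells are a mixture of cells that carried the reporter, and their markers of peptidergic neurons summed to a mean of 8376 CPM per cell. That sum was 500 CPM in the Th class and 479 CPM in the Mrgprd class. Some remaining cells carried the markers of a class. Of those nearest the Th threshold, Blue_101 and Red_106 had 7 of 7 touch markers, Blue_13 had 1 and Blue_48 had 0. Nearest the Mrgprd threshold, Control2_14 and Control_61 had 8 of 8 Mrgprd markers, and Red_32 and Blue_44 had 4. The part of such cells in the shared differences was not tested.

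**Figure D5:**
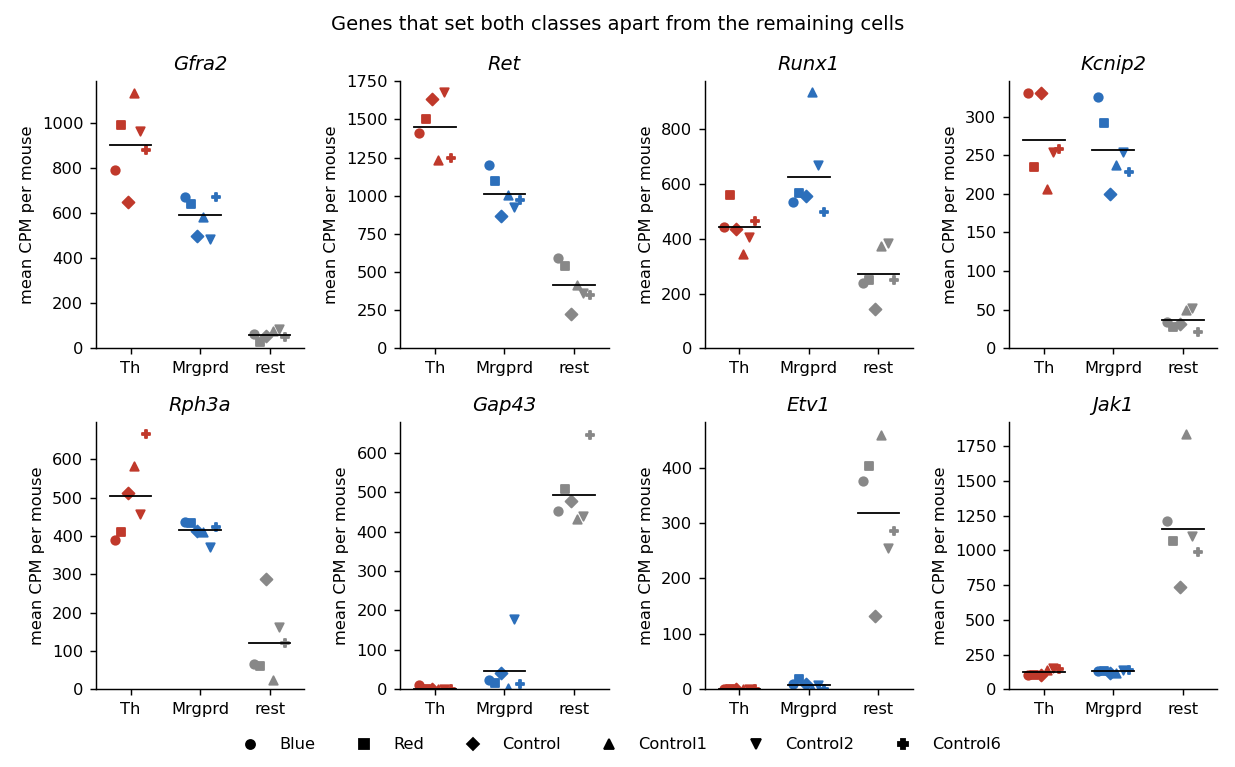
Each panel shows 1 gene, with mean CPM per mouse on the y axis and the Th class, the Mrgprd class and the remaining cells on the x axis; symbols are the 6 mice and black lines the means over mice. Gfra2, Ret, Kcnip2 and Rph3a are above the remaining cells in both classes of every mouse, and Gap43, Etv1 and Jak1 are below them.

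Gfra2, the co-receptor through which neurturin acts on Ret (chr14:70890120-70979838, plus strand), had the largest difference from the remaining cells among the genes shared on the higher side. It averaged 793 and 993 CPM in the Th class of Blue and Red, 671 and 643 CPM in the Mrgprd class and 45.6 CPM in the remaining cells. The 2 classes exceeded the remaining cells by 4.01 (limma adjusted p = 6.1e-07; 3.55 with 6 mice). Between the classes the difference of 0.43 passed the test (limma adjusted p = 7.11e-03), with a 95% interval from 0.21 to 0.66. Ret averaged 1456, 1151 and 565 CPM in the Th class, the Mrgprd class and the remaining cells, and its difference between the classes was 0.34 (limma adjusted p = 7.96e-03). These small differences of Gfra2 and Ret did not pass the test in thinned cells (limma adjusted p = 0.11 and 0.0996).

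Runx1, a transcription factor of the non-peptidergic lineage (chr16:92601466-92826149), averaged 443 and 558 CPM in the Th class, 535 and 569 CPM in the Mrgprd class and 244 CPM in the remaining cells. The classes did not differ by the test in Blue and Red (-0.15, 95% interval -0.37 to 0.08), and both exceeded the remaining cells (1.09, limma adjusted p = 6.9e-06). Kcnip2, a calcium-sensing partner of Kv4 channels, averaged 283, 308 and 30.9 CPM, with 3.06 between both classes and the remaining cells. Rph3a, which binds Rab3 on synaptic vesicles, averaged 400, 436 and 63.3 CPM. Cdh1, E-cadherin, averaged 295, 504 and 35.3 CPM, and thioredoxin, Txn1, 1883, 3229 and 445.5 CPM. Between the classes each differed by -0.73 without the 2 doubtful cells (limma adjusted p = 7.32e-07 for Cdh1 and 3.88e-12 for Txn1). The other shared genes on the higher side by the naming rule were Ptprr, Nexn, Tmem35a, Ccdc141 and Lhfpl3, with 2.49 to 2.75 above the remaining cells. Of these, Ptprr and Lhfpl3 differed between the classes by 0.62 and 0.66 without the doubtful cells (limma adjusted p = 2.64e-03 and 1.66e-03).

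Some genes were high in both classes yet at clearly different levels. Grik1, a kainate receptor subunit on which earlier knowledge of Mrgprd neurons draws, averaged 497 CPM in the Th class, 1354 CPM in the Mrgprd class and 32.1 CPM in the remaining cells. It differed by -1.44 between the classes (limma adjusted p = 6.45e-08), and both exceeded the remaining cells by 4.52. Kcnip4 averaged 463, 982 and 221 CPM.

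Other genes were low in both classes and higher in the remaining cells. Etv1, a transcription factor, was at 0 in all 34 Th class cells and averaged 14.7 CPM in the Mrgprd class and over 6 mice between 132 and 459.5 CPM in the remaining cells. Jak1, a kinase of cytokine receptors, averaged 102.6 CPM in the Th class, 132 CPM in the Mrgprd class and 1137 CPM in the remaining cells (-3.23). Gap43, a growth-associated protein, averaged 5.36, 19.7 and 481 CPM (-5.04), and 2.84 CPM in the Th class without the doubtful Blue cell. The same cell moved the Th class mean of Celf4 in Blue, which was 122.1 CPM with it and 49.5 CPM without. Between the classes Celf4 differed by -0.87 with edgeR in 6 mice (edgeR adjusted p = 4.41e-04). Jak1 was lower in both classes by the rule for shared genes. So were Celf4, Rock2, Nr3c1, Plxna2, Maged1, Lpar1, Egr1 and S100a13, with differences from -3.20 to -1.65. Gap43 and Etv1 did not meet that rule. Gap43 was lower in the Th class than in the Mrgprd class by the test, and Etv1 was not tested between the classes. Of markers of itch neurons with Mrgpra3, 0 of 4 were detected in the Th class and 3 of 4 in the Mrgprd class at a mean of 11.7 CPM in sum. The cold receptor gene Trpm8 was found in 0 of 34 Th class cells.

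The tests in Blue and Red have 1 residual degree of freedom, to which the spread over genes adds 11.4 prior degrees of freedom. Blue and Red are also 1 run, and the other runs hold too few Th class cells to be fitted singly.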

How the data were processed

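Single tdTomato+ DRG cells of 6 naive mice were sequenced as separate libraries in 4 runs; reads were aligned with STAR 2.7.3a to mm10, per the submitters' processing notes, and the annotation, counting and strand are not given in the sources used here. The authors deposited a signal, in which each gene's count is multiplied by a factor of its cell: in 252 columns whole reads were recovered and in 142 they were not claimed (a median of 96.5% of low values was whole within 0.1). Rn45s (7.1% of the signal) and 26 entries with dates for names (0.154%) were left out, and each cell was scaled to CPM. Mean CPM per mouse and class were transformed to log2(CPM + 5) and fitted with limma 3.58.1 in R 4.3.3, using a trended prior, mouse as a block, a mean of 10 CPM or more per gene, mice with at least 3 cells per class, and Benjamini-Hochberg adjustment at 0.05. Both classes come from the same mice, which is where the pairing comes from. Mice are separate animals, and all are of 1 condition.

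Fits with edgeR 4.0.16 and DESeq2 1.42.0 on recovered counts (rounded), pseudocounts of 1 and 20, other filters and thresholds, thinned cells and left-out mice were alternatives. The 147 members and the gene lists were chosen with earlier results of these data known. Named genes were the 12 largest differences each way (adjusted p under 0.05, at least 20 CPM, same direction in every mouse fitted, no predicted or ribosomal genes), up to 4 genes of smallest p per list, genes given in advance, and the 10 largest shared differences each way. The limma fit of the Th class against the Mrgprd class was run on simulated data before use. The edgeR and DESeq2 fits and the fit against the remaining cells were not. Positions come from GENCODE vM21 (mm10), flanks from RefSeq (GRCm38.p6). A limit for a count of 0 is 3 counts, and limits and intervals cover counting error only. The labels list 400 cells; 6 were not analysed here. Some genes that the rule names are not reported here.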

Additional observations from a re-analysis of the deposited data

Results flagged for a closer look

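The log2 difference between the classes was compared over the 6 mice in each gene named with values. In 18 genes 1 mouse stood apart from the other 5 by its gap relative to the whole range (Dixon's 95% limit). Chance alone gives about 1 in 20 of the genes compared, and the 18 were a larger share than that. In 13 of the 18 the mouse was Control, Control1, Control2 or Control6. These are 4 of the 6 mice, so 13 is near an even share. Each of these 4 has 1 or 2 Th class cells. Blue, with 14 Th class cells, was the mouse in 4 genes and Red in 1. The part of small cell numbers was not tested.

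In mouse Blue, Trpv1 differed by 3.12, against -2.42 to -1.27 in the other 5 mice; 1 of its 14 Th class cells carried all of it. Blue also stood apart for Cckar (4.57, others 5.74 to 6.36), Hs6st2 (-3.71, others -7.03 to -6.35) and Bdnf (-2.44, others -4.74 to -3.91; its Th class mean in Blue was 12.5 CPM, and 1.79 CPM without the doubtful cell), and Red for Unc13c (-3.46, others -5.45 to -4.81).

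In Control2, with 1 Th class cell, Scn3b differed by -3.81 against 1.90 to 2.72 elsewhere, Scn10a by -1.47 against -2.10 to -1.87, Dgkk by 2.66 against 4.52 to 5.52, and Syt4 by -4.85 against -3.09 to -2.11. Maged1 (-1.22) and S100a13 (-3.69) were also lowest there. In Control6 the values were Nefh -5.13, Cd34 3.84, Serping1 -1.32 and Tmem63b -0.68. In Control, Atp11a differed by 2.77 and Ngfr by 2.48, each below the other 5 mice. In Control1, Stmn1 differed by 1.99, above 1.27 to 1.52 in the others.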

How the results depend on the processing

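The 2407 genes that differed between the classes became 1556 with a mean of at least 50 CPM, 1096 with all 6 mice, 1197 with DESeq2, 1048 with cells thinned to 10000 counts and 527 in the 4 mice of the other runs; leaving out 1 of the 6 mice gave 788 to 1159. The 2200 genes of both classes against the remaining cells became 1085 with 6 mice, and 758 to 1101 with 1 mouse left out. The 4440 genes at a like level became 1976 with 6 mice, where the cause was not tested, and 1507 to 2428 with 1 mouse left out. Of 369 tested list genes 260 differed (70.5%), 33.3% in the 4 other mice, and 42.2% to 52.3% with 1 of 6 mice left out. Other alternatives gave between 2155 and 3061 genes; edgeR gave 2840. The share of genes higher in the Th class was 55%, 37.7% with log2 values averaged over cells and 50% with centring on the median gene. Without the replicate block 2233 genes differed, and of the genes named with values Gap43 alone was no longer past the threshold (limma adjusted p = 0.0889). Without the 2 doubtful cells 2647 genes differed, and without cells over 200 CPM of 7 glial genes 2469; these fits have 47.1 and 84.4 prior degrees of freedom against 11.4, so their p-values are smaller for a like difference.

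Trpv1 changed sign to -1.18 with averaged log2 values. It was -2.44 without cells over 200 CPM of 7 glial genes and -2.39 without the doubtful cells. Both of these settings leave out the Blue cell that carried Trpv1, so they are not separate checks. Celf4, 0.11 in Blue and Red, changed to -0.87 with edgeR in 6 mice, past the threshold (edgeR adjusted p = 4.41e-04). Without the doubtful cells Celf4 was -0.50 (limma adjusted p = 0.0855). The cause was not tested. With limma in 6 mice 7 named genes changed sign (Trpv1 to -1.03, Celf4 to -1.76, and Kcnip2, Rph3a, Nr3c1, Maged1 and Egr1). Of these 7, 0 were past the threshold in either limma fit. Another 5 genes were no longer past the threshold (Scn3b, Nefh, Ptprr, Lhfpl3 and Tmem63b) and 2 newly passed it (Scg2 and Ccdc141). Leaving out Blue or Red leaves 1 mouse and no residual degree of freedom, so only gene values were given. A limit of 500 CPM of wide glial markers left 0 cells in either class. That list holds the Schwann cell genes, which summed to a mean of 2871 CPM in the Th class and 1133 CPM in the Mrgprd class. Scn7a, 1 of them, had a count in 97.1% of Th class and 99.1% of Mrgprd class cells. Its pooled levels were 801 and 202 CPM, so Scn7a alone did not make up these sums. No mouse of runs 2 to 4 has 3 cells of each class, so neither alternative could be fitted. Run 1 alone is the same as the 2 mice used. Some of these alternatives were chosen after seeing the data: the 6-mouse fits of the shared genes, the 4 other mice, the narrow glial limit and the doubtful cells. Depth limits calls: genes under 10 CPM, Ddc and Dbh among them, were not tested.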
